A study of Arabidopsis thaliana with 16 samples.

Results

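The ATG8 genes of Arabidopsis thaliana and ATG3 encode the conjugation step of autophagy. They were followed here as the 8 genes with a single-gene probe set whose symbol starts with ATG and a digit, out of 13355 genes with such a probe set. These were ATG3 (AT5G61500), ATG8B (AT4G04620), ATG8C (AT1G62040), ATG8D (AT2G05630), ATG8E (AT2G45170), ATG8F (AT4G16520), ATG8G (AT3G60640) and ATG8H (AT3G06420), each with 1 probe set. The choice used symbols only and no measured value, and all 8 were tested with no filter on low intensity.

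RNA was measured on 16 Affymetrix arrays of whole seedlings in the Col-0 background, of the null mutant phyA-211 (phyA) and the wild type (WT). Phytochrome A is a photoreceptor for far-red light. All seedlings grew for 5 days in white light and were then kept for 24 h in shade (red to far-red ratio 0.7), in strong shade (ratio 0.1) or in white light of 45 µmol m-2 s-1. In shade the LEDs gave 13 µmol m-2 s-1 of red, 3.5 of blue and 21 of far-red light. In strong shade they gave 3 of red, 3.5 of blue and 30 of far-red. Each genotype had 3 arrays in shade, 3 in strong shade and 2 in white light. The lamp and its total output changed together with the ratio, so a difference from white light belongs to the whole change of light. The labels do not say whether replicates were separate sowings, so the p-values speak of the spread among these arrays, part of which may be technical. The mutant carries a single allele, and its label has no check here, since no single-gene probe set carried the name PHYA.

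In autophagy, cell contents are enclosed in a double membrane and delivered to the vacuole for breakdown, and plants rely on it when carbon or nitrogen runs short. ATG8 is a small ubiquitin-like protein that the protease ATG4 trims to a terminal glycine. The activating enzyme ATG7 and the conjugating enzyme ATG3 then attach it to phosphatidylethanolamine in the growing membrane, where it recruits cargo receptors such as NBR1. Arabidopsis carries ATG8 as a family in which ATG8A to ATG8G need trimming, whereas ATG8H and ATG8I already end at the glycine.

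Values are log2 of the deposited intensity. A value after ± is the SE where it follows a log2 difference, and the SD over arrays where it follows a group mean. A gene was called at an adjusted p under 0.05 in limma, with Benjamini-Hochberg adjustment over all 22746 probe sets. Whether RNA of one ATG8 gene also bound the probes of another was not tested. Levels of different probe sets are not comparable, so genes are set against each other only in how far they moved. Of the markers of a whole seedling, 5 green tissue and 3 root genes were measured. The root hair genes EXPA7 and EXPA18 were dim, below the array median on 11 and 12 of the 12 arrays of shade and strong shade. Arrays of the phyA shades were not cleanly separated. The third phyA shade array had a mean correlation across probe sets of 0.986 with its own group and 0.989 with phyA strong shade, while the other two phyA shade arrays were closer to their own group. All 3 phyA strong shade arrays were closer to phyA shade than to their own group, at 0.990, 0.988 and 0.988 with phyA shade and 0.989, 0.987 and 0.981 with phyA strong shade. The third arrays had the lowest correlation with their own group in both, and counts or values without them are also given. They were singled out from these same data, and leaving out such arrays tends to narrow the spread. A new call without them is thus no separate test.

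ATG8B moved furthest. Its log2 intensity was 7.35, 7.19 and 7.72 in phyA shade and 7.82, 7.92 and 6.93 in phyA strong shade, against 3.63 and 3.79 in phyA white light. In WT it was 6.87, 6.51 and 6.27 in shade and 6.39, 6.91 and 6.53 in strong shade, against 3.62 and 4.00 in white light. Every shade and strong shade array thus lay far above every white-light array in both genotypes. ATG8B rose by 3.71 ± 0.267 in phyA shade (limma adjusted p = 2.12e-08) and by 3.85 ± 0.267 in phyA strong shade (1.35e-08), or 13.1-fold and 14.4-fold. In WT it rose by 2.74 ± 0.267 in shade (limma adjusted p = 7.92e-07) and by 2.80 ± 0.267 in strong shade (5.53e-07), or 6.68-fold and 6.95-fold. In white light ATG8B lay below the array median on 3 of 4 arrays, and its height above background was not measured here, so these folds may be lower bounds. The low array of phyA strong shade was the third; without the third arrays ATG8B stood at 3.56 ± 0.200 in phyA shade and 4.16 ± 0.200 in phyA strong shade.

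ATG8E came next. Its log2 intensity was 8.10, 8.01 and 8.07 in phyA shade and 8.20, 8.42 and 7.66 in phyA strong shade, against 6.38 and 6.40 in phyA white light. In WT it was 7.68, 7.44 and 7.41 in shade and 7.86, 7.94 and 7.93 in strong shade, against 5.77 and 6.11 in white light. The groups did not overlap with white light in either genotype. ATG8E rose by 1.68 ± 0.176 in phyA shade and 1.71 ± 0.176 in phyA strong shade (limma adjusted p = 1.19e-06 and 9.41e-07). In WT ATG8E was up by 1.57 ± 0.176 under shade and 1.97 ± 0.176 in strong shade (limma adjusted p = 3.25e-06 and 2.77e-07).

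**Figure D1:**
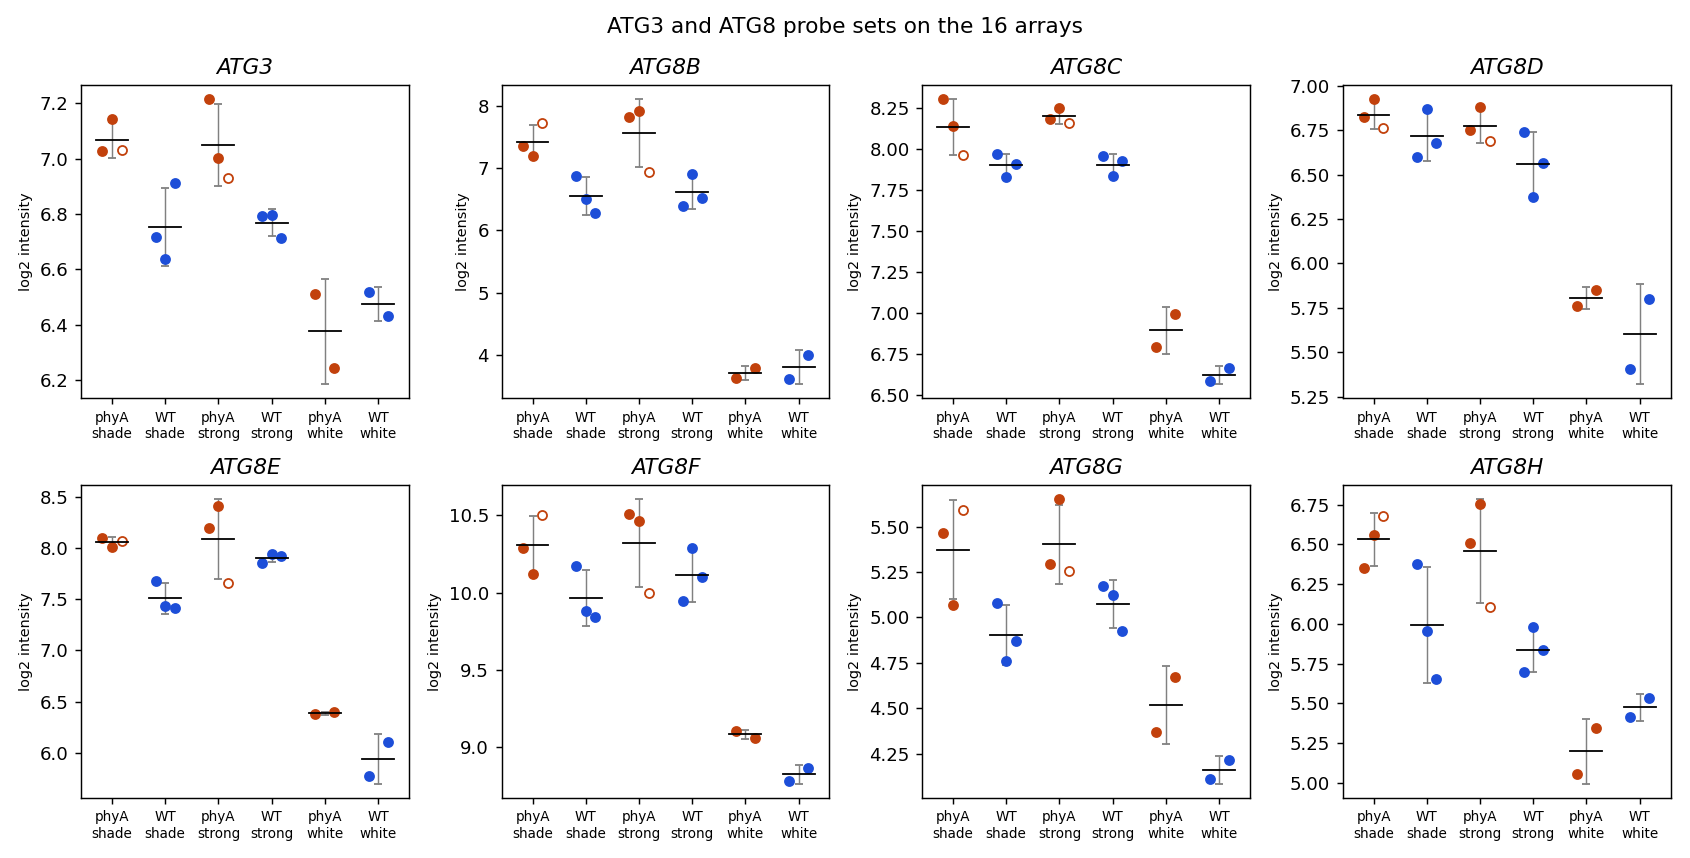
Log2 intensity of each gene's probe set (vertical axis, own scale per panel) on every array, for phyA (orange) and WT (blue) in shade, strong shade and white light. Points are arrays, black lines group means and grey bars the SD; open points are the third phyA arrays of shade and strong shade. All shade and strong shade arrays lie above the white-light arrays of their genotype in all 8 panels, by the widest gap for ATG8B.

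ATG8C and ATG8F moved by similar amounts. ATG8C averaged 8.14 ± 0.169 in phyA shade and 8.20 ± 0.0477 in phyA strong shade (n = 3 each), against 6.90 ± 0.143 in phyA white light (n = 2). In WT it averaged 7.90 ± 0.0689 in shade and 7.91 ± 0.0637 in strong shade, against 6.62 ± 0.0559 in white light. Its rises lay between 1.24 and 1.31 in all 4 comparisons with white light (limma adjusted p up to 3.93e-07). ATG8F averaged 10.30 ± 0.191 in phyA shade and 10.32 ± 0.284 in phyA strong shade, against 9.08 ± 0.0291 in phyA white light. In WT it averaged 9.97 ± 0.182 in shade and 10.11 ± 0.170 in strong shade, against 8.82 ± 0.0593 in white light. Its rises lay between 1.14 and 1.29 (limma adjusted p up to 4.81e-05).

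ATG8D and ATG8G rose less. ATG8D averaged 6.84 ± 0.0816 in phyA shade and 6.77 ± 0.0966 in phyA strong shade, against 5.80 ± 0.0638 in phyA white light. In WT it averaged 6.71 ± 0.138 in shade and 6.56 ± 0.183 in strong shade, against 5.60 ± 0.281 in white light. Its rises lay between 0.96 and 1.11 (limma adjusted p up to 4.74e-05). ATG8G, the dimmest probe set of the 8, averaged 5.37 ± 0.273 in phyA shade and 5.40 ± 0.218 in phyA strong shade, against 4.52 ± 0.215 in phyA white light. In WT it averaged 4.90 ± 0.164 in shade and 5.07 ± 0.133 in strong shade, against 4.16 ± 0.0767 in white light. Its rises lay between 0.74 and 0.91 (limma adjusted p up to 0.00253).

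ATG8H passed the test against white light in phyA, whereas in WT it missed the threshold. Its log2 intensity was 6.35, 6.56 and 6.68 in phyA shade and 6.51, 6.76 and 6.11 in phyA strong shade, against 5.05 and 5.34 in phyA white light. In WT it was 6.37, 5.95 and 5.65 in shade and 5.69, 5.98 and 5.83 in strong shade, against 5.42 and 5.54 in white light. The phyA groups were well apart, whereas the lowest WT shade array lay only just above white light. ATG8H rose by 1.33 ± 0.205 in phyA shade and 1.26 ± 0.205 in phyA strong shade (limma adjusted p = 6.29e-05 and 0.000106). In WT it stood at 0.52 ± 0.205 in shade (limma adjusted p = 0.0613) and 0.36 ± 0.205 in strong shade (limma adjusted p = 0.196). The WT shade value passed without WT shade 3, where it was 0.69 (adjusted p = 0.0173), without the third phyA arrays (0.0302), with the replicate number as a block (0.0377), without the dimmest 40% of probe sets (0.0479) and with median centring (0.0482).

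ATG3, the enzyme that conjugates ATG8, moved least. Its log2 intensity was 7.03, 7.14 and 7.03 in phyA shade and 7.22, 7.00 and 6.93 in phyA strong shade, against 6.51 and 6.24 in phyA white light. In WT it was 6.72, 6.64 and 6.91 in shade and 6.79, 6.80 and 6.71 in strong shade, against 6.52 and 6.43 in white light. The groups did not overlap in either genotype, but the WT gap was small. ATG3 rose by 0.69 ± 0.124 in phyA shade and 0.67 ± 0.124 in phyA strong shade (limma adjusted p = 0.000274 and 0.00034). In WT it stood at 0.28 ± 0.124 in shade and 0.29 ± 0.124 in strong shade (limma adjusted p = 0.097 and 0.0766). Median centring, which moved the median difference of all probe sets by 0.0672 and 0.129 in these WT comparisons, put ATG3 at 0.35 and 0.42 and past the threshold (0.0404 and 0.0127). Cyclic loess put it at 0.17 and 0.18 (0.327 and 0.28).

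Over the 8 genes, all rose in phyA shade and all in phyA strong shade, while 20.7% and 21.7% of all probe sets were called higher there and 20.1% and 20.3% lower. In WT 6 rose in shade and 6 in strong shade, while 16.9% and 18% of all probe sets were called higher and 19.6% and 21.2% lower. The median difference of the 8 was 1.23 in phyA shade, 1.25 in phyA strong shade, 1.13 in WT shade and 1.12 in WT strong shade, where the medians of all probe sets were 0.03, 0.04, -0.02 and 0.00. In each of the 4 comparisons the arrays of the 8 genes did not overlap with white light, all in the higher direction. In phyA shade the same was so of 31.1% of all probe sets, with 28.2% lower, and in phyA strong shade of 31.5%, with 26.9% lower. In WT shade it was so of 26%, with 29.9% lower, and in WT strong shade of 28%, with 30.5% lower. Comparisons within a genotype share their white-light arrays. Without the third phyA arrays all 8 were again called in phyA shade and phyA strong shade, where the share of all probe sets was not taken.

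**Figure D2:**
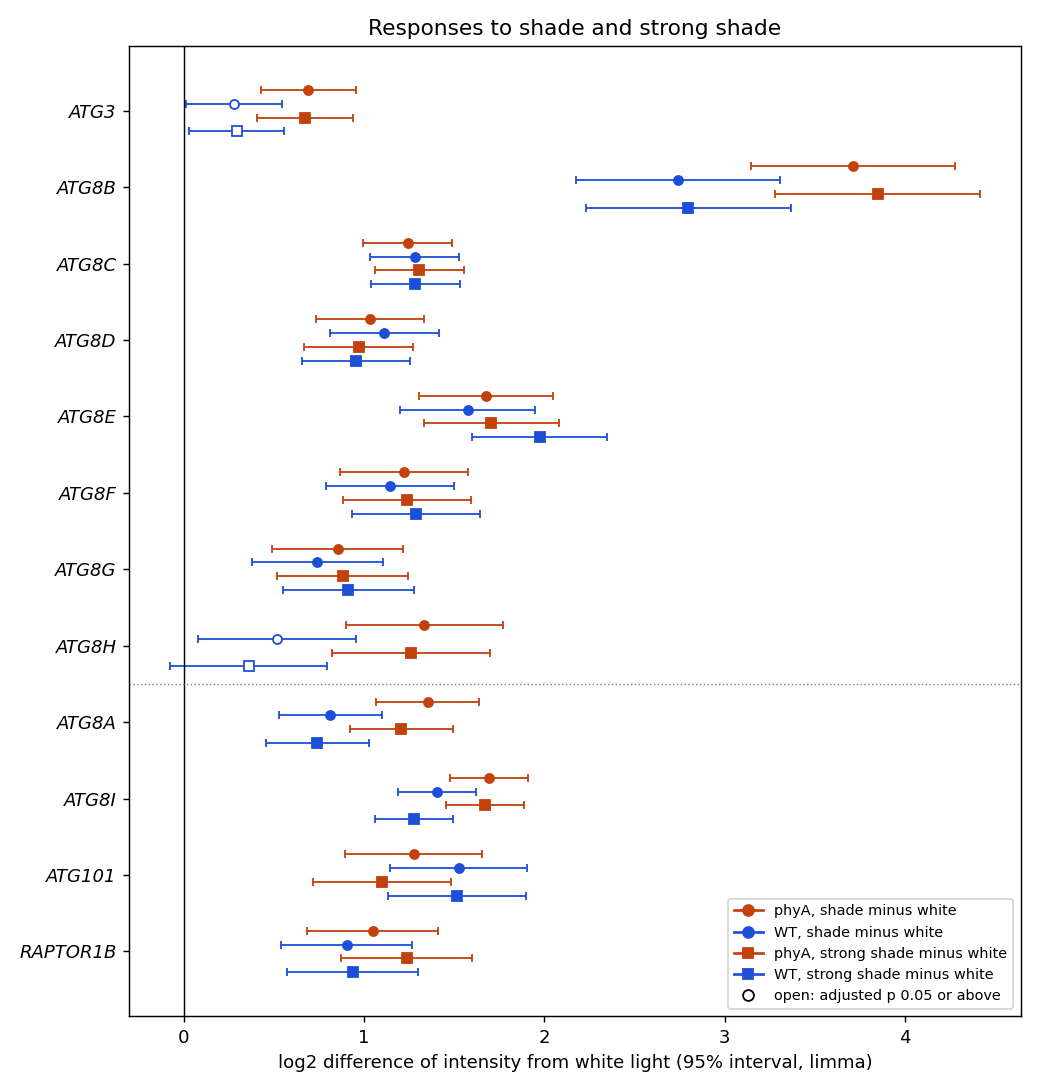
Log2 difference from white light (horizontal axis) with 95% intervals from limma for the 8 genes and, under the dotted line, 4 further autophagy genes. Circles are shade and squares strong shade, orange phyA and blue WT; open symbols did not reach an adjusted p under 0.05. ATG8B stands at 2.74 to 3.85, and the open symbols are ATG3 and ATG8H in WT.

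The genes were set against each other through the ratio of 2 probe sets on the same array, here against ATG8C, whose response varied least of the 8 between comparisons, a choice made after the values were seen and given with no test. The log2 ratio of ATG8B to ATG8C was 2.47 higher in phyA shade and 2.54 higher in phyA strong shade than in phyA white light. In WT it was 1.46 higher in shade and 1.51 higher in strong shade than in white light. Its arrays ranged from -0.96 to -0.25 in phyA shade and from -1.23 to -0.34 in phyA strong shade, against -3.21 to -3.17 in phyA white light. ATG8B thus gained on ATG8C on every shaded array. It also gained on ATG8E, by 2.03 and 2.14 in phyA and by 1.17 and 0.82 in WT. Without the third phyA arrays the gain on ATG8C in phyA was 2.23 in shade and 2.84 in strong shade, and that on ATG8E 1.89 and 2.24.

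The ratio of ATG8F to ATG8C changed by -0.14 to 0.00, with overlapping arrays in all 4 comparisons. Without the third arrays it changed by -0.20 in phyA shade, where the arrays no longer overlapped, and by 0.08 in phyA strong shade. ATG8E gained on ATG8C by 0.43 in phyA shade, 0.40 in phyA strong shade, 0.29 in WT shade and 0.69 in WT strong shade, and its arrays overlapped with white light in phyA strong shade alone. Without the third arrays ATG8E gained 0.34 in phyA shade and 0.60 in phyA strong shade, and neither overlapped. ATG8G lost ground by 0.37 to 0.54, and by 0.58 in phyA shade without the third array. ATG8H lost 0.76 in WT shade and 0.92 in WT strong shade, with ratios of -2.26 to -1.59 and -2.26 to -1.86 against -1.17 to -1.13 in WT white light. In phyA its ratio moved by 0.09 and -0.05, and by -0.07 and 0.11 without the third arrays, and overlapped with white light either way. The ratio of ATG8H to ATG8C also differed between the genotypes in white light itself, at -1.70 ± 0.0604 in phyA and -1.15 ± 0.0286 in WT (n = 2 each).

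**Figure D3:**
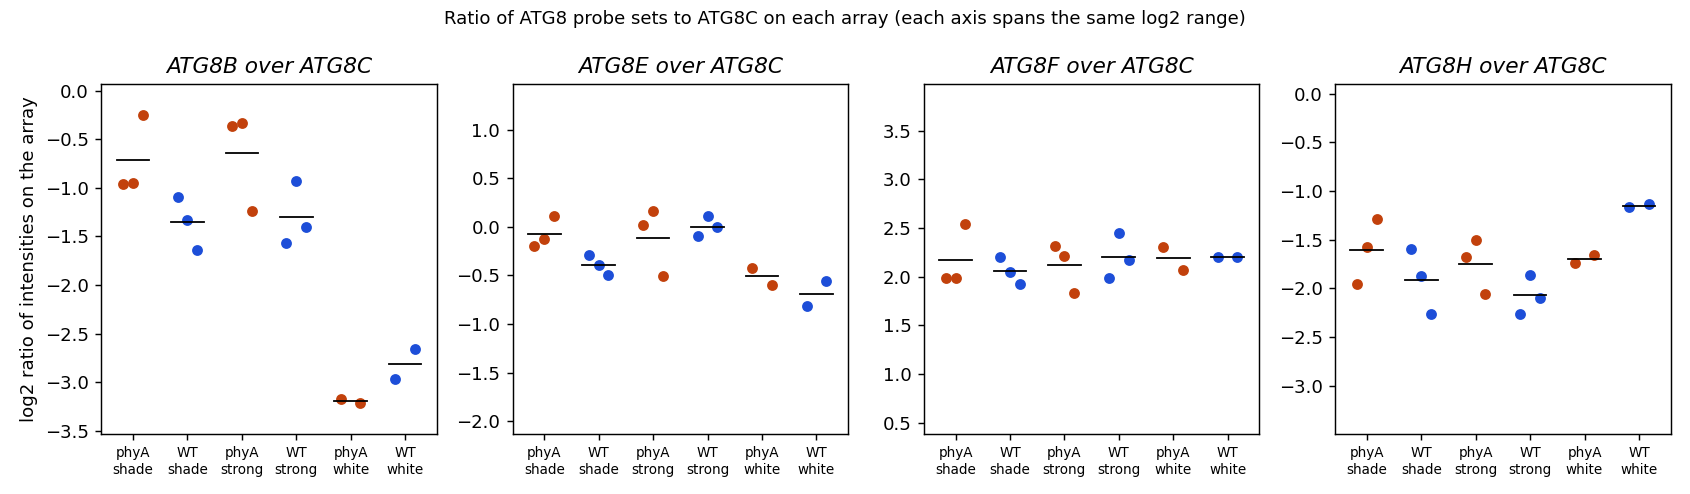
Log2 ratio of the ATG8B, ATG8E, ATG8F and ATG8H probe sets to ATG8C on each array (vertical axis, the same span in each panel), for phyA (orange) and WT (blue); lines are group means. The ATG8B ratio is 1.46 to 2.54 higher in shade and strong shade than in white light, the ATG8F ratio changes by -0.14 to 0.00, and the ATG8H ratio is lower in shade in WT.

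Strong shade and shade were then compared directly. In phyA, with all arrays, limma called 0 of the 8 genes (0 at an unadjusted p under 0.05), and it called 0% of all probe sets in either direction. The arrays of all 8 genes overlapped there, while those of 4.48% of all probe sets did not overlap in the higher direction and of 3.2% in the lower. The differences ran from -0.07 for ATG8H to 0.14 for ATG8B, whose 95% interval was -0.37 to 0.65. In WT limma called 0 of the 8 (1 at an unadjusted p under 0.05), against 0.268% of all probe sets called higher and 0.391% lower. That 1 was ATG8E, at 0.40 ± 0.157 (95% interval 0.07 to 0.73, limma adjusted p = 0.268). All 3 WT strong shade arrays of ATG8E lay above the 3 WT shade arrays, as did those of 11% of all probe sets, with 11.4% lower. Without the third phyA arrays, limma called 0 of the 8 in both genotypes (1 in each at an unadjusted p under 0.05). ATG8B in phyA then stood at 0.60 ± 0.200 (adjusted p = 0.12) and ATG8E in WT at an adjusted p of 0.0542. The share of all probe sets was not taken in that setting. The sugar starvation genes PPDK and MGL were then called higher in phyA strong shade than in phyA shade (limma adjusted p = 0.0429 and 0.0499).

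Between the genotypes, all 8 genes averaged higher in phyA than in WT in shade and in strong shade, by 0.12 to 0.87 and by 0.18 to 0.95. Few of these differences passed the test. ATG8B was higher in phyA by 0.87 ± 0.238 in shade (limma adjusted p = 0.0496) and by 0.95 ± 0.238 in strong shade (limma adjusted p = 0.0151). ATG8H was higher in phyA by 0.62 ± 0.183 in strong shade (limma adjusted p = 0.0373) and stood at 0.54 ± 0.183 in shade (0.125). ATG8E stood at 0.55 ± 0.157 in shade (0.0595), and all its phyA shade arrays lay above those of WT.

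In shade 1 of the 8 was called higher, while 1.19% of all probe sets were called higher and 3.59% lower. In strong shade 2 were called higher, while 5.43% of all probe sets were called higher and 6.26% lower. The arrays of 3 genes in shade and of 5 in strong shade did not overlap between the genotypes, all higher in phyA. The shares of all probe sets were 10.4% higher and 10.3% lower in shade, and 14.6% higher and 12.1% lower in strong shade. Medians of the 8 were 0.40 in shade and 0.29 in strong shade, where those of all probe sets were 0.01 and 0.02. These calls were not stable, since leaving out any of several single arrays ended each of them, while the differences stayed higher in phyA. In shade ATG8B lost its call without WT shade 2 or 3 or any single phyA shade array (adjusted p up to 0.19) and with the replicate block (0.0578). Also in shade, ATG8H passed without WT shade 1 (0.0337) and ATG8G without phyA shade 2 (0.0293), and ATG8E passed with median centring (0.0496), without the dimmest 40% of probe sets (0.046) and with only the compared groups in the model (0.0383). In strong shade ATG8B lost its call with only the compared groups in the model (0.0674) and without WT strong shade 1 or 3 or phyA strong shade 1 or 2 (up to 0.0717). ATG8H lost its call there with median centring (0.0549), with only the compared groups (0.0694), and when any single WT strong shade array was left out, or without phyA strong shade 1 or 2 (up to 0.147). Without the third phyA arrays ATG8B stood at 0.72 ± 0.182 in shade (adjusted p = 0.0301) and 1.26 ± 0.182 in strong shade (0.000201), ATG8H at 0.80 ± 0.178 in strong shade (0.00718), and ATG8E passed in shade at 0.55 ± 0.129 (0.0192).

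All 5 measured green tissue markers, from a list chosen with earlier results of these data known, averaged lower in phyA than in WT in both shades. Their log2 differences were unlike, from -1.06 to -0.14 in shade and from -1.49 to -0.16 in strong shade, the smallest for LHCB4.1. The summed intensity of the 5 green tissue genes was 6708 to 7410 in phyA shade, against 10203 to 10394 in WT shade, and 5858 to 6361 in phyA strong shade, against 9882 to 11198 in WT strong shade. In white light it was 12208 to 13231 in phyA and 13286 to 13369 in WT. These sums lean on the brightest probe sets. RCA averaged a log2 intensity of 10.71 in phyA shade and 11.77 in WT shade, while LHCB4.3 averaged 4.02 and 4.25. Of the 5 genes, limma called 3 lower in phyA in shade and 4 in strong shade, against 3.59% and 6.26% of all probe sets. The 3 root genes summed to 920 to 1305 in phyA shade against 1367 to 1818 in WT shade, and to 779 to 1775 in phyA strong shade against 1151 to 1349 in WT strong shade. In white light the 3 root genes summed to 2455 to 2523 in phyA and 2169 to 2497 in WT. Of the 3, limma called 0 between the genotypes in shade and 0 in strong shade (smallest limma adjusted p = 0.126 and 0.28). The root sums are almost wholly PYK10 and say little of the other root genes. In WT shade PYK10 averaged a log2 intensity of 10.61, against 3.35 for EXPA7 and 3.10 for EXPA18. The green sums without the third phyA arrays were 6708 to 7410 in phyA shade and 6228 to 6361 in phyA strong shade, and the root sums 1084 to 1305 and 779 to 822. The part of these markers in the ATG8 values was not tested, and in whole seedlings fewer cells of a type and less RNA per cell cannot be told apart.

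In white light limma called 0 of the 8 genes between the genotypes (2 at an unadjusted p under 0.05), against 0.0747% of all probe sets called higher and 0.0791% lower. The differences of phyA from WT ran from -0.28 ± 0.225 for ATG8H to 0.45 ± 0.192 for ATG8E (adjusted p = 0.702). The 2 arrays of each genotype did not overlap for 4 genes higher in phyA and for ATG8H, lower in phyA, against 14.6% and 25.1% of all probe sets.

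**Figure D4:**
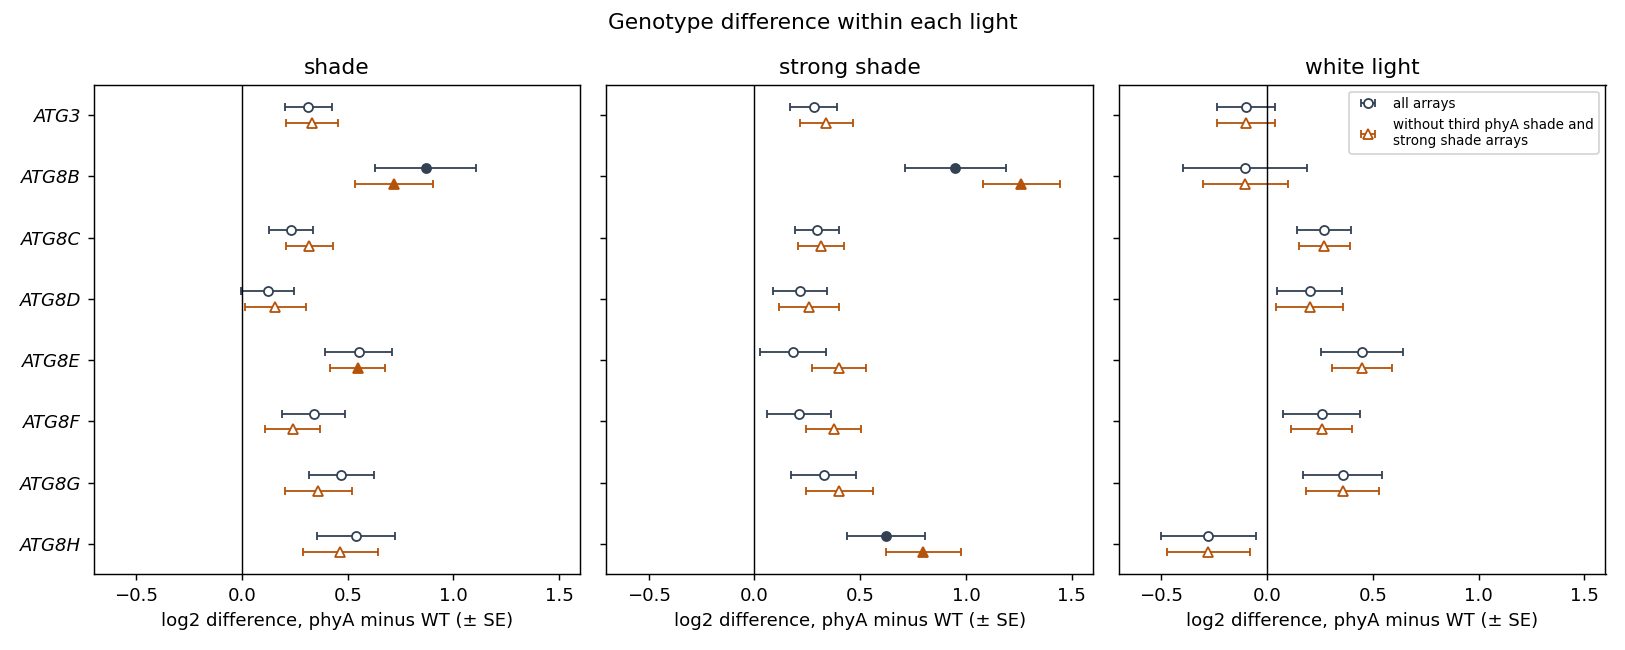
Log2 difference of phyA minus WT for each gene (horizontal axis, bars ± SE) in shade, strong shade and white light, with all arrays (dark circles) and without the third phyA arrays of shade and strong shade (orange triangles). Filled symbols reached a limma adjusted p under 0.05. ATG8B passes in both shades at 0.72 to 1.26, and no gene passes in white light.

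Whether the response itself differed between the genotypes was tested as a difference of differences. For shade limma called 0 of the 8 (3 at an unadjusted p under 0.05), against 0.167% of all probe sets called higher and 0.884% lower. For strong shade it also called 0 (3 at an unadjusted p under 0.05), against 1.12% and 2.55%. The phyA minus WT difference of response for ATG8B was 0.97 ± 0.377 in shade (limma adjusted p = 0.347) and 1.05 ± 0.377 in strong shade (0.166). For ATG8H it was 0.82 ± 0.290 in shade (limma adjusted p = 0.277) and 0.90 ± 0.290 in strong shade (0.113). ATG3 stood at 0.41 ± 0.176 and 0.38 ± 0.176 (0.408 and 0.315).

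The other 5 genes lay between -0.08 and 0.11 in shade and between -0.27 and 0.02 in strong shade, with 95% intervals inside -0.80 to 0.63. Without the third phyA arrays, ATG8B passed for strong shade at 1.36 ± 0.271 (limma adjusted p = 0.00659) and ATG8H at 1.08 ± 0.265 (0.0265). Leaving out phyA strong shade 3 alone gave calls of the same 2 genes (0.0146 and 0.0338). Because these arrays were chosen for their low correlation, a narrower spread without them was likely beforehand, and these passes are no separate test. The share of all probe sets was not taken in these settings. For shade 0 passed without the third arrays, with ATG8B at 0.82 (0.186) and ATG8H at 0.74 (0.237). For the step between the shades limma called 0 of the 8 (0 at an unadjusted p under 0.05), and 0% of all probe sets.

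Further autophagy genes came from a list of 50 loci, of which 13 were dropped because symbol and locus did not pair in the reference gene table. Of the rest, 12 had a single-gene probe set, the 8 genes above and 4 more. ATG8A (AT4G21980) is listed on the array as APG8A, and ATG8I (AT3G15580) under the older name APG8H, which must not be confused with ATG8H. ATG101 (AT5G66930) belongs to the kinase complex that starts autophagy, and RAPTOR1B (AT3G08850) is the partner of the TOR kinase, which restrains autophagy. All 4 rose in shade and in strong shade in both genotypes.

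ATG8I had log2 intensities of 9.70, 9.80 and 9.66 in phyA shade, against 8.04 and 8.01 in phyA white light, and of 9.33, 9.26 and 9.28 in WT shade, against 7.96 and 7.80 in WT white light. It rose by 1.69 ± 0.102 in phyA shade and 1.67 ± 0.102 in phyA strong shade, and by 1.41 ± 0.102 in WT shade and 1.28 ± 0.102 in WT strong shade (limma adjusted p up to 9.28e-08). ATG8I, which like ATG8H needs no trimming, thus passed in WT, where ATG8H did not; the difference between these genes was not tested. ATG8A rose by 1.35 ± 0.134 and 1.20 ± 0.134 in phyA and by 0.81 ± 0.134 and 0.74 ± 0.134 in WT (limma adjusted p up to 0.000318). ATG101 rose by 1.27 and 1.10 in phyA and by 1.52 in both WT comparisons, and RAPTOR1B by 1.05 and 1.24 in phyA and by 0.90 and 0.94 in WT.

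Between the genotypes both of these ATG8 genes passed. ATG8A was higher in phyA by 0.62 ± 0.120 in shade and 0.55 ± 0.120 in strong shade (limma adjusted p = 0.00491 and 0.0063), and ATG8I by 0.43 ± 0.0912 and 0.54 ± 0.0912 (0.00998 and 0.000846). ATG8A, without the third phyA arrays, stood at 0.68 and 0.64 (limma adjusted p = 0.00333 and 0.00257) and ATG8I at 0.46 and 0.55 (0.0171 and 0.00236). ATG8I missed the threshold in shade without WT shade 2 (0.0502) and with only the groups compared in the model (0.0656). ATG101 and RAPTOR1B stood between 0.04 and 0.31 (adjusted p from 0.389 to 0.946).

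Lists of genes for carbon shortage and senescence, chosen with earlier results of these data known, were read beside the family. Of 7 sugar starvation genes, 5 were measured. All 5 rose in the 4 comparisons with white light, by 3.05 to 5.87, among them IVD of leucine breakdown at 4.78 in phyA shade and 4.42 in WT shade. Of all probe sets, 16.9% to 21.7% were called higher in these comparisons. Given how the list was chosen, the rise of its genes is no separate reading of carbon shortage, which was not tested. Of 12 dark and senescence genes only SAG101 and WRKY53 had a single-gene probe set. Both lay below the array median on all 16 arrays and among the dimmest 40% of probe sets, where a change may not be measurable, and neither was called in any comparison with white light. SAG101 passed in phyA strong shade with median centring (adjusted p = 0.0496), without the third phyA arrays (0.0302), without phyA strong shade 3 (0.0339) or without phyA white 1 (0.0402), and WRKY53 in both phyA comparisons without phyA white 2 (0.0402 and 0.0396).

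Likeness of pattern was measured as the root-mean-square difference between 2 genes' 6 group means, each gene centred on its own mean. ATG8C and ATG8F were the closest pair of the 8, at 0.0509. ATG8C was rank 3 of 13354 genes in likeness to ATG8F, and ATG8F rank 5 to ATG8C. The member most like ATG8B, ATG8E, was rank 251 at 0.783, and the one most like ATG8H, ATG8G, was rank 406 at 0.222. For ATG3 it was ATG8G, rank 3248 at 0.225. When the third phyA arrays were left out, ATG8C and ATG8F stood at 0.0959, as rank 31 to ATG8F and rank 27 to ATG8C.

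The genes most like each were mostly known by locus only. For ATG8B they were AT3G51000 at 0.131 and AT5G66650 at 0.138, and for ATG8E AT1G78895 at 0.0751 and AT5G04910 at 0.0964. For ATG8C they were AT5G64270 at 0.0379 and AT1G22790 at 0.0382, and for ATG8F AT1G77370 at 0.0448 and AT3G12650 at 0.0493. For ATG8D they were AT2G22690 and AT3G18215 (0.0371 and 0.0382), and for ATG8G AT2G19180 and AT3G51440 (0.0465 and 0.0553). ATG8H was most like AT2G41410 at 0.0513 and TCP15, which encodes a TCP transcription factor, at 0.0664. ATG3 was most like AT5G11680 at 0.0133 and AT1G44414 at 0.0150. Of these 16 genes, 12 were in the first 10 ranks without the third phyA arrays, and AT2G41410 stood at rank 308 for ATG8H. These distances describe the 6 group means and share the arrays and the white-light groups.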

How the data were processed

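Labelled RNA of whole seedlings was hybridised to Affymetrix arrays, 1 per sample. The authors deposited 1 linear intensity per probe set and array (2.33 to 6167, array medians 13.5 to 15.1). The submitters' processing notes name RMA and affy, without versions. The log2 of the deposited intensity was taken with no pseudocount and no further scaling. limma 3.58.1 in R 4.3.3 fitted 1 mean per group to all 16 arrays and 22746 probe sets (10 residual degrees of freedom), followed by eBayes, for 12 comparisons. The number of arrays limits the precision.

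Of the probe sets, 13513 had 1 gene in the platform annotation, 503 several and 8730 none listed; 13436 of the 13513 matched the TAIR10.1 gene table, used for names only. The probe set with the highest mean stood for a gene. The members, lists and alternatives were chosen with earlier results of these data known. All members were named, then up to 4 genes of each list, then the 2 genes most like each member.

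The alternatives were median centring, cyclic loess, no dim probe sets, a model on the compared groups, the replicate block, leaving out both phyA arrays numbered 3, and leaving out each array. Leaving out the third phyA arrays was added for ratios, marker sums and likeness after seeing the data. No member had another probe set, so that alternative was not run. The fit was tested on simulated data.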

Additional observations from a re-analysis of the deposited data

How the results depend on the processing

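Over the alternatives, 1181 values of single members kept their side of the threshold, 17 newly passed it and 18 no longer did. None of those called, before or after, changed direction, but some values called in neither setting changed sign. Without the third phyA arrays, for example, ATG8H in phyA strong shade minus phyA shade went from -0.07 to 0.18. The cause of these changes was not tested. In phyA minus WT in shade, 1 member was called; median centring, leaving out the dimmest 40% of probe sets, a model with only the groups compared and leaving out the third phyA arrays each gave 2, and the replicate block gave 0 (6 at an unadjusted p under 0.05 in limma). In strong shade 2 were called, with 1 after median centring and 0 with only the groups compared (5 at an unadjusted p under 0.05). For the difference of the strong shade response, 0 were called and 2 without the third phyA arrays. Leaving out single arrays gave 0 to 2 calls in each of these 3. It gave 6 to 7 in WT shade, 6 in WT strong shade and 8 in both phyA comparisons with white light. The shares of all probe sets were not taken in these alternative settings. Whether a changed count belongs to the members or to the whole table thus cannot be told.

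Replicate numbers 1 to 3 did not pair the samples. Deviations of same-numbered arrays correlated at -0.579 to 0.318 (36 pairs), and 7 pairs exceeded 0.1. Those of other-numbered arrays correlated at -0.326 to 0.512 (70 pairs), and 12 pairs exceeded 0.1. The replicate block ended the call of ATG8B between the genotypes in shade (0.0578), brought ATG8H in WT shade past the threshold (0.0377) and changed no other member's call.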
